A study of Mus musculus with 8 samples.

Results

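The unfolded protein response and the integrated stress response were followed through 32 genes in hearts of db/db mice. They were 3 sensors of the endoplasmic reticulum (Ern1, Eif2ak3 and Atf6), 4 transcription factors (Xbp1, Atf4, Atf5 and Ddit3), 15 chaperone and folding genes and 10 targets of ATF4. They were picked by name from a table of 55487 genes, and all 32 passed the filter on low counts that left 13648 genes for testing. Atf5 was placed with the factors, and Herpud1, which the ATF6 and ATF4 arms are both known to induce, was placed with the chaperone and folding genes.

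The libraries came from heart RNA of db/db mice, 4 labelled DIZE and 4 labelled vehicle, so the db/db genotype, a leptin receptor mutation that makes mice obese and diabetic, was shared by both groups. DIZE is read here as diminazene aceturate, an antiprotozoal compound. Dose, route, duration, age and sex are not stated in the labels, and no heart from a mouse without the db/db genotype was analysed here, so nothing below says whether the response was raised by diabetes itself. Whether each library was a separate animal is not stated, and p-values therefore measure the spread between these samples. Replicate numbers 1 to 4 name the libraries and pair nothing.

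When misfolded protein collects in the endoplasmic reticulum, the chaperone BiP (Hspa5) is drawn off 3 membrane sensors. IRE1 (Ern1) splices Xbp1 mRNA, ATF6 is cut free in the Golgi, and the resulting factors induce chaperones, disulfide isomerases and degradation genes. PERK (Eif2ak3) phosphorylates eIF2 alpha, which slows general translation and favours translation of ATF4. ATF4 then induces genes of amino acid uptake, of serine and asparagine synthesis and of mitochondrial folate metabolism. The kinases GCN2, PKR and HRI reach ATF4 without the endoplasmic reticulum, and in heart muscle the ATF4 program is best known from mitochondrial defects. Splicing of Xbp1, cleavage of ATF6 and phosphorylation of PERK or eIF2 alpha do not show in gene counts, so the values below describe mRNA levels only.

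Total counts lay between 7447664 and 10161623 per library, and 1 CPM (1 count per 1000000 reads in tested genes) stood for 7.46 to 10.3 reads. Summed cardiomyocyte markers (10 of 10 tested) were at 55226 to 63175 CPM in DIZE hearts and at 35217 to 60004 CPM in vehicle hearts, where the lowest value belonged to vehicle 1. Vehicle 1 also had the highest sums of atrial markers (7 of 8 tested), at 1015 CPM, where the other 7 libraries had 59.5 to 445.8 CPM, and of macrophage markers (10 of 10 tested), at 1200.0 CPM, where the others had 622 to 734 CPM. Liver markers (10 in the table, 2 tested) summed to 1990 CPM in vehicle 2 and to 6.97 to 36.9 CPM in the other 7 libraries. Erythroid markers (7 in the table, 5 tested) summed to 8.95 to 78.5 CPM in DIZE hearts and to 101.4 to 210.4 CPM in vehicle hearts. No marker on these lists was at 0 in all 8 libraries. In bulk heart RNA, fewer cells of a type and less RNA per cell cannot be told apart.

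No stress response gene passed the test between DIZE and vehicle hearts, and their fold changes centred near 0. In edgeR's quasi-likelihood test, adjusted by Benjamini-Hochberg over all genes, 0 of the 32 genes reached an adjusted p under 0.05, where 0.0366% of all genes tested did. Of the 32, 16 (50%) had a fitted log2 fold change (DIZE over vehicle) above 0, where 48.2% of all genes did, and 16 had one below, with a median of 0.00030 against -0.013 over all genes tested. At an unadjusted p under 0.05 there were 4 of 32 (12.5%), where 19.4% of all genes passed: Shmt2 and Ppp1r15a were higher in DIZE hearts, and Aldh1l2 and Dnajc3 were lower. DESeq2 called 1 of the 32, Aldh1l2, where it called 4.45% of all genes, and limma-voom called 0. DIZE and vehicle values did not overlap in 3 of 32 (9.38%), against 12.4% of all genes: Shmt2 and Dnajb11 lay higher in every DIZE heart, and Aldh1l2 lower.

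The intervals bounded most of these genes to less than a doubling or a halving, which leaves room for smaller changes. The 95% interval of the log2 fold change lay within -1 and 1, that is, within a doubling or a halving, for 26 of 32 genes and reached beyond it for 6, namely Sdf2l1, Asns, Phgdh, Mthfd2, Aldh1l2 and Slc7a5. All of these 6 but Sdf2l1 are ATF4 targets. Each interval is for its own gene and is not adjusted for the number of genes. The plot of fold changes sets these intervals side by side.

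**Figure D1:**
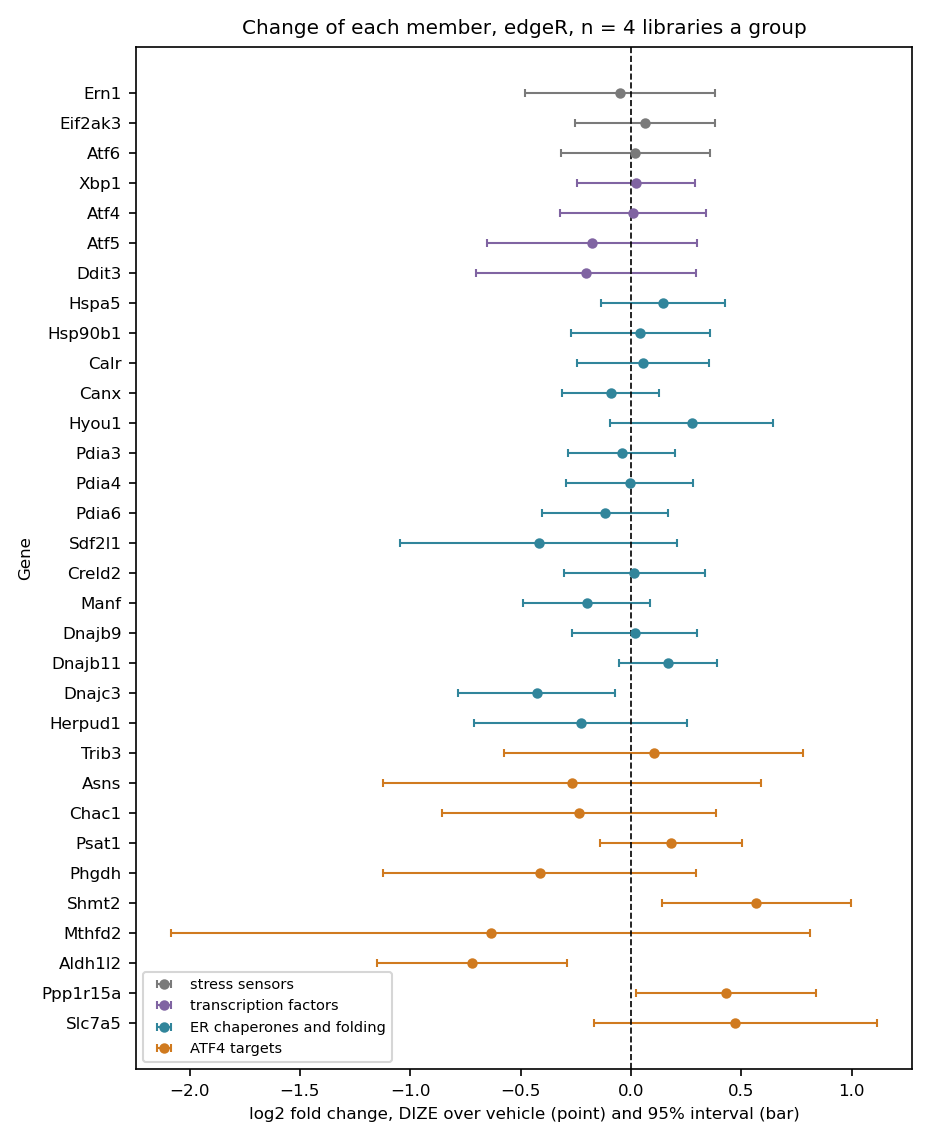
Fitted log2 fold change (DIZE over vehicle) of the 32 genes by role, with points for edgeR estimates and bars for 95% intervals over 4 DIZE and 4 vehicle libraries. Shmt2 (0.57) and Aldh1l2 (-0.72), both ATF4 targets, mark the ends of the range, and 28 of the 32 intervals include 0.

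The group means of the 3 sensors lay within their spread. Atf6, whose cut form switches on chaperone genes, had 186, 204, 145 and 139 CPM in DIZE hearts 1 to 4, against 138, 156, 192 and 179 CPM in vehicle hearts 1 to 4. The groups overlapped fully, and within each group 2 libraries were high and 2 low. The fitted log2 fold change was 0.019 ± 0.15 (SE), with a 95% interval of -0.32 to 0.36 and an adjusted p of 0.96 (edgeR quasi-likelihood, Benjamini-Hochberg). Ern1 had 23.0, 22.5, 15.7 and 22.9 CPM in DIZE hearts and 14.8, 21.2, 27.9 and 23.2 CPM in vehicle hearts, a log2 fold change of -0.050 ± 0.20 (SE). Its lowest DIZE heart, number 3, stood apart from 3 that nearly coincided. Eif2ak3, the kinase PERK, was the steadiest of the sensors, at 13.4 to 18.3 CPM in DIZE hearts and 13.3 to 18.0 CPM in vehicle hearts (log2 fold change 0.064 ± 0.14, SE).

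Among the transcription factors the group means were closest for Atf4. Its mRNA was at 131, 114, 82.9 and 88.8 CPM in DIZE hearts and at 92.4, 113, 102 and 107 CPM in vehicle hearts. DIZE 1 was the highest of all 8 libraries and DIZE 3 the lowest, so the vehicle values lay inside the DIZE range. The means were 104 ± 22.4 and 104 ± 8.71 CPM (SD, n = 4 each), with a log2 fold change of 0.0074 ± 0.15 (SE) and a 95% interval of -0.32 to 0.34. Atf4 is known to be regulated mainly in translation, so its mRNA says little about the protein.

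Ddit3 encodes CHOP, the factor linked to cell death after long stress. It had 24.4, 18.9, 10.2 and 14.1 CPM in DIZE hearts, against 18.4, 17.6, 20.9 and 20.8 CPM in vehicle hearts. The vehicle hearts lay close together, and the DIZE hearts lay on both sides of them, 1 above, 1 among them and 2 below. Its fitted log2 fold change was -0.20 ± 0.23 (SE), and it was -0.43 without DIZE 1 and -0.021 without DIZE 3. The annotation holds a second, short Ddit3 model inside the longer one, which was listed at 0 CPM and is not used here.

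Xbp1, whose spliced mRNA encodes the main inducer of degradation and secretory genes, averaged 75.4 ± 10.6 CPM in DIZE hearts and 74.1 ± 5.05 CPM in vehicle hearts (SD, n = 4 each; log2 fold change 0.023 ± 0.12, SE). Atf5, a relative of ATF4 known for mitochondrial stress, had 32.6, 28.4, 38.8 and 28.7 CPM in DIZE hearts and 25.1, 35.4, 54.7 and 30.6 CPM in vehicle hearts. Vehicle 3 alone was above all DIZE hearts, and without it the log2 fold change of Atf5 was 0.083 instead of -0.18.

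Chaperone genes are bound by ATF6 and XBP1 at the ER stress response element, whose letters are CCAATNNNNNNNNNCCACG. RefSeq promoters (250 bases before to 50 after the start, build GRCm38.p6) were matched for 27 of the 32 genes, and both strands were searched. The element stood in 7 of the 13 chaperone and folding genes with a promoter (53.8%), where 37 of 27025 genes (0.137%) held it. It was in 0 of 8 ATF4 targets, 0 of 4 factors and 0 of 2 sensors. The shorter CCACG, which is the second part of the element, was in 12 of the 13, in 6 of 8 ATF4 targets, in 2 of 4 factors and in 1 of 2 sensors, where 35.5% of all genes held it. A match is a description of letters and not evidence of binding in these hearts. The windows of 60 bases shown here are 5 of the chaperone matches, chosen to show how the element varies between promoters, in the direction of the gene and with the element in capitals. Positions count from the gene's start and give the element's first base. They are Hspa5 (chr2:34772005-34772064, plus strand, element from base -65), Dnajc3 (chr14:118937807-118937866, plus strand, element from base -105), Hsp90b1 (chr10:86705617-86705676, minus strand, element from base -212), Canx (chr11:50325779-50325838, minus strand, element from base -145) and Calr (chr8:84847054-84847113, minus strand, element from base -162), where the Calr element lies on the other strand and its capitals show its complement read backwards.
Hspa5: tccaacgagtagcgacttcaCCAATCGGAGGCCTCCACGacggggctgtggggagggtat
Dnajc3: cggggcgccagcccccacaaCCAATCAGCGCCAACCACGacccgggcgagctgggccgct
Hsp90b1: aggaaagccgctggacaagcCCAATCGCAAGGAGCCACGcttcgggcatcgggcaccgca
Canx: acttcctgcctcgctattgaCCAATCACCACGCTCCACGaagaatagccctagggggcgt
Calr: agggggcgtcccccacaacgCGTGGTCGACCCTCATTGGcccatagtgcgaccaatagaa

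The 15 chaperone and folding genes centred near 0. Fitted log2 fold changes were above 0 for 7 and below 0 for 8, from -0.43 (Dnajc3) to 0.27 (Hyou1), with a median of -0.0068, against -0.013 over all genes tested. Hspa5, the BiP gene, is the usual readout of this arm and had the highest level per length of the 32 genes, at 145 CPM per kb of exon. It had 674, 757, 575 and 579 CPM in DIZE hearts, against 493, 648, 581 and 614 CPM in vehicle hearts. DIZE 1 and 2 lay above every vehicle heart, DIZE 3 and 4 lay inside the vehicle range, and vehicle 1 was the lowest. The means were 646 ± 86.9 and 584 ± 66.5 CPM (SD, n = 4 each), and the log2 fold change was 0.15 ± 0.13 (SE) with a 95% interval of -0.14 to 0.43. It was 0.062 without DIZE 2 and 0.072 without vehicle 1.

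Hyou1, a large chaperone that works with BiP, had 61.5, 59.2, 49.3 and 44.6 CPM in DIZE hearts, against 32.4, 41.8, 54.2 and 48.9 CPM in vehicle hearts. DIZE 1 and 2 were again above all vehicle hearts, and vehicle 1 was again the lowest library. Its log2 fold change was 0.27 ± 0.17 (SE), with an adjusted p of 0.385 (edgeR quasi-likelihood, Benjamini-Hochberg), and it was 0.15 without vehicle 1. Hsp90b1 (GRP94), the HSP90 of the endoplasmic reticulum, had 208, 302, 199 and 203 CPM in DIZE hearts and 204, 224, 221 and 236 CPM in vehicle hearts. DIZE 2 stood above the rest, DIZE 3 and 4 lay just below every vehicle heart, and DIZE 1 lay among them (log2 fold change 0.042 ± 0.14, SE). An opposite-strand gene at 8.70 CPM covers 10.3% of its exon bases, and the labels do not say whether counting used strand.

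The lectin chaperones hold glycoproteins until they fold. Calr had 275, 366, 359 and 324 CPM in DIZE hearts and 251, 342, 343 and 339 CPM in vehicle hearts (log2 fold change 0.055 ± 0.14, SE), with library 1 the lowest in each group. Its annotated pseudogene Calr-ps averaged 0.0294 CPM. Canx, the membrane-bound partner, varied least of the 32 genes, with the highest library 1.22 times the lowest. It was at 304 to 336 CPM in DIZE hearts and 312 to 372 CPM in vehicle hearts (log2 fold change -0.092 ± 0.10, SE).

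The disulfide isomerases Pdia3, Pdia4 and Pdia6 form and reshuffle the disulfide bonds of secreted proteins. Pdia3 averaged 185 ± 15.6 CPM in DIZE hearts and 191 ± 16.5 CPM in vehicle hearts, Pdia4 34.2 ± 4.58 and 34.4 ± 3.60 CPM, and Pdia6 92.1 ± 15.4 and 99.9 ± 5.13 CPM (SD, n = 4 each). Their log2 fold changes were -0.043, -0.0068 and -0.12, each smaller than its SE. The small stress-induced genes Creld2, Manf and Sdf2l1 code for a disulfide-handling protein, a secreted neurotrophic factor and a cofactor of BiP. Creld2 averaged 14.1 ± 1.13 CPM in DIZE hearts and 13.9 ± 2.09 CPM in vehicle hearts. Manf averaged 17.4 ± 1.81 and 19.9 ± 2.08 CPM, with a log2 fold change of -0.20 ± 0.13 (SE). Sdf2l1 was near the detection limit, at 1.52 to 2.93 CPM in DIZE hearts and 2.31 to 4.21 CPM in vehicle hearts, and its interval was accordingly wide (-1.05 to 0.21).

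The J-domain proteins hand clients to BiP, and Dnajc3 and Dnajb11 among them had mean differences of opposite sign. Dnajc3 (p58IPK), which also inhibits PERK and PKR, had 60.8, 80.7, 50.4 and 49.4 CPM in DIZE hearts, against 92.5, 71.4, 77.6 and 82.4 CPM in vehicle hearts. DIZE 1, 3 and 4 lay below every vehicle heart, and DIZE 2 lay among them. The means were 60.3 ± 14.5 and 81.0 ± 8.87 CPM (SD, n = 4 each). The log2 fold change was -0.43 ± 0.16 (SE), with a 95% interval of -0.78 to -0.072 and an adjusted p of 0.191 (edgeR quasi-likelihood, Benjamini-Hochberg).

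Dnajb11 (ERdj3) had 60.6, 58.9, 62.8 and 57.3 CPM in DIZE hearts, against 48.0, 53.7, 55.5 and 55.8 CPM in vehicle hearts. It is the only chaperone gene of the 15 whose groups did not overlap, although the gap between the lowest DIZE and the highest vehicle heart was small. This came to a log2 fold change of 0.17 ± 0.10 (SE), and the adjusted p was 0.374 (edgeR quasi-likelihood, Benjamini-Hochberg). Dnajb9 (ERdj4), an XBP1 target, averaged 66.1 ± 9.66 CPM in DIZE hearts and 65.3 ± 6.06 CPM in vehicle hearts (SD, n = 4 each; log2 fold change 0.016 ± 0.13, SE).

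Herpud1, a membrane protein of the degradation complex, was nearly as high per length as Hspa5, at 142 CPM per kb. It had 419, 251, 255 and 293 CPM in DIZE hearts, against 259, 479, 283 and 403 CPM in vehicle hearts. The highest library in each group was far above the lowest, and the groups overlapped throughout. Vehicle 2, the heart with liver markers, was the highest, and the log2 fold change was -0.23 ± 0.22 (SE) with it and -0.050 without it. The part of liver RNA in this value was not tested.

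**Figure D2:**
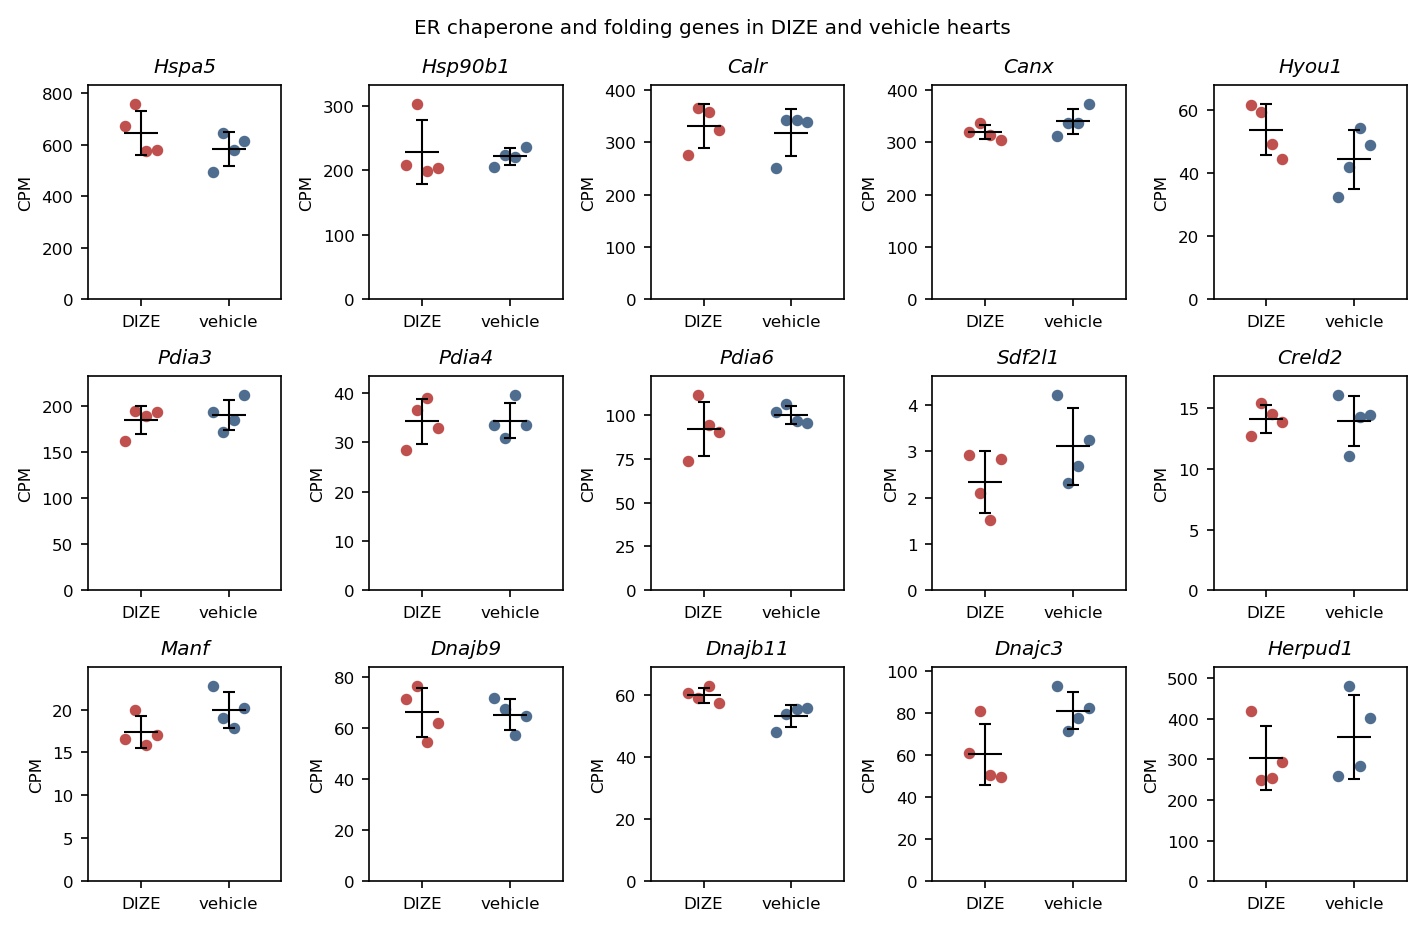
CPM of the 15 chaperone and folding genes in each library, DIZE left and vehicle right in each panel, with points for libraries in replicate order and bars for mean ± SD (n = 4 each), axes from 0. Dnajb11 is the panel where the groups do not overlap, and in the Dnajc3 panel DIZE 2 (80.7 CPM) lies among the vehicle hearts.

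ATF4 acts through a composite C/EBP-ATF element, searched here as TGATGNAA on both strands. It was in 3 of the 8 ATF4 targets with a promoter (Asns, Chac1 and Trib3) and in 1 of the 13 chaperone and folding genes (Herpud1), where 4.51% of all genes held it. Windows are given for Chac1 (chr2:119351023-119351082, plus strand, element from base -193) and Herpud1 (chr8:94386291-94386350, plus strand, element from base -112), as examples of an ATF4 target and of the folding gene that shares its element, with the element in capitals on the other strand in each.
Chac1: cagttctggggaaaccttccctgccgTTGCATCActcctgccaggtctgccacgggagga
Herpud1: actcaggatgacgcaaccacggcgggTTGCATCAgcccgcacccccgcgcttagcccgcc

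The ATF4 targets spread more widely than the chaperones and in no common direction. Of the 10, 5 had a log2 fold change above 0 and 5 below, from -0.72 to 0.57, with a median of -0.066, against -0.013 over all genes tested. The median rested on single libraries, at 0.23 without vehicle 3 and -0.26 without DIZE 1. Of these 10 genes, 8 spanned at least 2.5-fold between the highest and the lowest of the 8 libraries, against 1 of the 15 chaperone and folding genes. Many of the targets were also low. Asns, Phgdh and Aldh1l2 had the 3 lowest levels per length of the 32 genes (1.43, 1.41 and 1.54 CPM per kb). Asns, Phgdh, Chac1 and Trib3 lay between 1.76 and 8.30 CPM in all 8 libraries, so counting error weighs more on them.

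The mitochondrial folate enzymes held both ends of the range. Shmt2, the mitochondrial serine hydroxymethyltransferase, had 85.2, 80.7, 99.6 and 86.8 CPM in DIZE hearts, against 36.4, 77.0, 56.9 and 67.6 CPM in vehicle hearts. Every DIZE heart lay above every vehicle heart, narrowly between DIZE 2 and vehicle 2, and vehicle 1 was the lowest by far. The means were 88.1 ± 8.14 and 59.5 ± 17.4 CPM (SD, n = 4 each). The fold was 1.48 and the log2 fold change 0.57 ± 0.19 (SE), with a 95% interval of 0.14 to 0.995 and an adjusted p of 0.165 (edgeR quasi-likelihood, Benjamini-Hochberg). It was 0.39 without vehicle 1, the library with the lowest cardiomyocyte marker sum, and 0.40 after removal of the trend with GC content and length.

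Aldh1l2, which oxidises folate-bound formyl groups in mitochondria, lay at the other end. It had 10.9, 7.37, 7.38 and 9.26 CPM in DIZE hearts, against 12.5, 11.2, 18.5 and 15.4 CPM in vehicle hearts. The groups did not overlap, with DIZE 1 just under vehicle 2. The means were 8.72 ± 1.69 and 14.4 ± 3.26 CPM (SD, n = 4 each), a fold of 0.607. The log2 fold change was -0.72 ± 0.20 (SE), with a 95% interval of -1.15 to -0.29, and the adjusted p of 0.118 (edgeR quasi-likelihood, Benjamini-Hochberg) was the smallest of the 32 genes. DESeq2 gave an adjusted p of 0.0358. The opposite-strand gene D10Wsu102e shares 1056 of the 7503 exon bases of Aldh1l2 and averaged 14.6 CPM in DIZE hearts and 15.95 CPM in vehicle hearts, so without strand the reads of the shared bases could not be told apart.

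Mthfd2, the folate dehydrogenase that is high in embryos and tumours, varied most of the 32 genes. It had 6.35, 1.71, 11.5 and 4.68 CPM in DIZE hearts and 6.46, 6.67, 22.3 and 3.34 CPM in vehicle hearts, so the highest library was 13.0 times the lowest. The highest and the lowest libraries belonged to different groups, yet the other 6 were mixed. The log2 fold change was -0.63 ± 0.64 (SE), and without vehicle 3 it was 0.17.

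Serine feeds mitochondrial folate metabolism. Phgdh and Psat1 make serine from a glycolytic intermediate, and Asns makes asparagine. Psat1 had 11.5, 11.6, 15.1 and 11.5 CPM in DIZE hearts and 11.4, 10.4, 12.1 and 10.01 CPM in vehicle hearts. Apart from DIZE 3 the libraries lay close together (log2 fold change 0.18 ± 0.15, SE). Phgdh averaged 3.02 ± 1.15 CPM in DIZE hearts and 4.01 ± 1.28 CPM in vehicle hearts (SD, n = 4 each; log2 fold change -0.41 ± 0.32, SE). Asns had 5.13, 3.03, 3.74 and 2.24 CPM in DIZE hearts and 3.49, 3.08, 8.18 and 2.45 CPM in vehicle hearts. Vehicle 3 was the outlying value here too, and the log2 fold change was -0.27 ± 0.39 (SE) with it and 0.23 without it.

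Ppp1r15a (GADD34) recruits the phosphatase that removes phosphate from eIF2 alpha and so ends the response. It had 51.0, 38.3, 39.9 and 68.6 CPM in DIZE hearts, against 31.0, 35.1, 41.7 and 39.3 CPM in vehicle hearts. DIZE 1 and 4 lay above every vehicle heart and the other DIZE hearts among them. The means were 49.5 ± 14.0 and 36.8 ± 4.72 CPM (SD, n = 4 each). The log2 fold change was 0.43 ± 0.19 (SE), with a 95% interval of 0.022 to 0.84 and an adjusted p of 0.236 (edgeR quasi-likelihood, Benjamini-Hochberg), and it was 0.23 without DIZE 4.

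Slc7a5 (LAT1) imports large neutral amino acids. It had 12.1, 12.9, 8.39 and 8.68 CPM in DIZE hearts, against 3.39, 9.49, 9.65 and 7.85 CPM in vehicle hearts. DIZE 1 and 2 were above all vehicle hearts, DIZE 3 and 4 among them, and vehicle 1 was well below the rest. Its log2 fold change was 0.47 ± 0.29 (SE) and 0.22 without vehicle 1. Trib3, a pseudokinase that dampens ATF4 and CHOP, was at 4.19 to 7.20 CPM in DIZE hearts and 3.21 to 8.18 CPM in vehicle hearts (log2 fold change 0.10 ± 0.31, SE). Chac1, which breaks down glutathione, had 8.30, 2.89, 5.46 and 5.07 CPM in DIZE hearts and 5.03, 6.03, 8.18 and 6.47 CPM in vehicle hearts (log2 fold change -0.23 ± 0.28, SE), with its highest and its lowest library both in the DIZE group. Without DIZE 1 the value for Chac1 was -0.50, and without DIZE 2 it was -0.036.

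**Figure D3:**
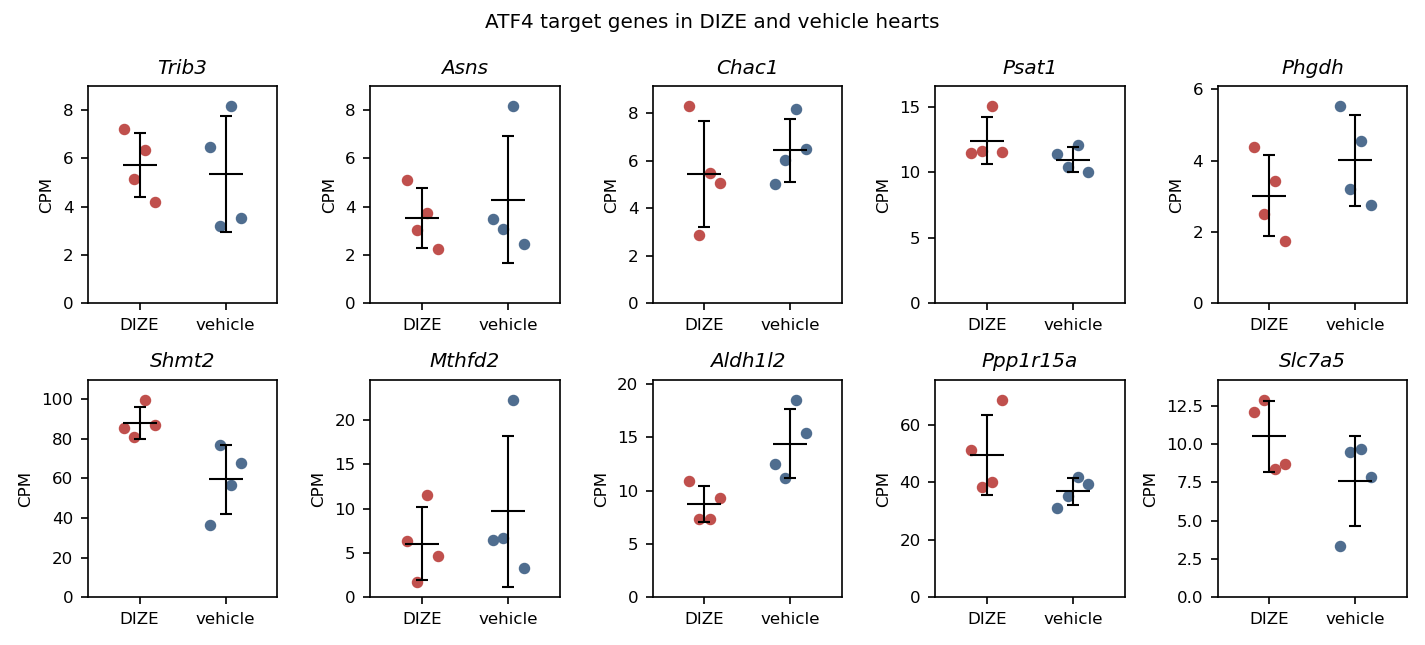
CPM of the 10 ATF4 targets in each library, DIZE left and vehicle right in each panel, with points for libraries in replicate order and bars for mean ± SD (n = 4 each), axes from 0. Shmt2 and Aldh1l2 are the panels whose groups do not overlap, in opposite directions, and vehicle 3 stands out at 22.3 CPM for Mthfd2 and 8.18 CPM for Asns.

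Several ATF4 targets were high or low together in single libraries. On a log2 scale centred on each gene, the mean of the 10 ATF4 targets was 0.29, -0.32, 0.14 and -0.16 in DIZE hearts 1 to 4, and -0.17, -0.088, 0.51 and -0.20 in vehicle hearts 1 to 4. Vehicle 3 was the highest library, and it held the highest value of 4 targets, Trib3, Asns, Mthfd2 and Aldh1l2. Over the 32 genes vehicle 3 was the highest library for 7, where it was the highest for 14.3% of all genes. Vehicle 1 was the lowest for 10 of 32, where it was the lowest for 27.0% of all genes. The same mean for the 15 chaperone and folding genes stayed within -0.11 and 0.12 in every library, and the highest were DIZE 2 (0.12) and vehicle 4 (0.10).

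**Figure D4:**
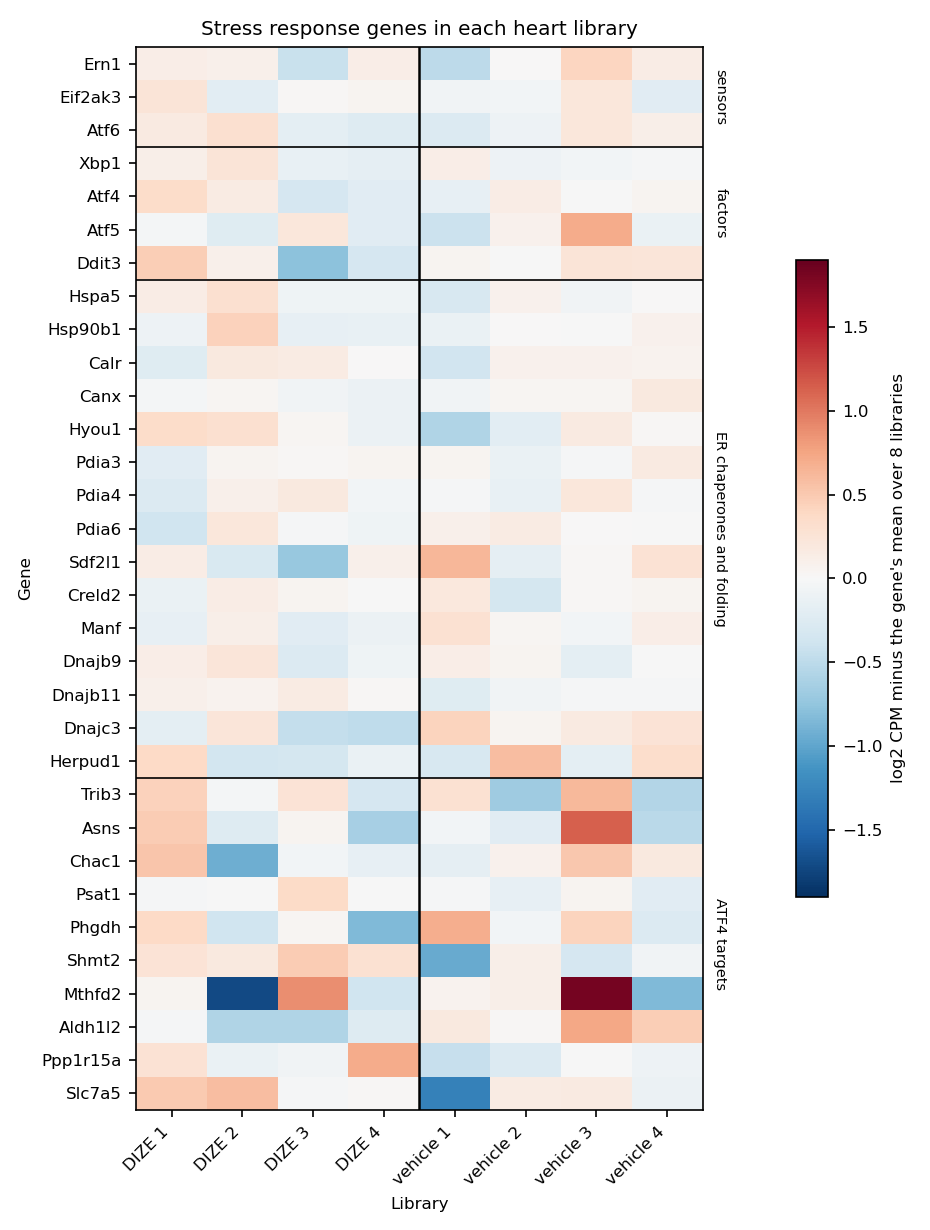
Heat map of log2 CPM minus the gene's mean over the 8 libraries (colour scale) for the 32 genes in rows by role and the libraries in columns, DIZE left of vehicle. The strongest colours are among the ATF4 targets (Mthfd2 in vehicle 3 and DIZE 2, Slc7a5 in vehicle 1), and the strongest of the chaperone block is Sdf2l1 in DIZE 3 (-0.71).

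The titles of DIZE 1 and 2 and of vehicle 1 and 2 hold the letters db, and those of the other 4 libraries do not. The names of the count columns split otherwise: those of vehicle 3 and 4 also hold db, and only those of DIZE 3 and 4 do not. What the difference in titles stands for is not stated, and the stress genes were read within each form of title. In 17 of the 32 genes (53.1%) the fitted log2 fold change was above 0 among the libraries with db and below 0 among those without, where this was so in 18.9% of all genes. They included all 4 transcription factors, 2 of 3 sensors, 7 of 15 chaperone and folding genes and 4 of 10 ATF4 targets. Of the 103 tested genes in the related lists further below, 25 (24.3%) had this pattern of signs. The genes were read in the same libraries and are not independent. DIZE 1 and 2 both lay above DIZE 3 and 4 in 11 of 32 (34.4%), against 25.0% of all genes and 39.8% of the related genes. Vehicle 1 and 2 both lay above vehicle 3 and 4 in 2 of 32, against 16.6% of all genes. Vehicle 1 and vehicle 2, the libraries with the high atrial and liver marker sums, both carry db in their titles. Median log2 fold changes of marker lists also differed between the forms, at -3.02 with db and -0.81 without for atrial markers, -0.63 and 0.022 for fibroblast markers, and 0.28 and 0.11 for cardiomyocyte markers. Their part in the values of the stress genes was not tested.

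Over the 32 genes the median log2 fold change was 0.098 with db and -0.16 without, against -0.00076 and 0.0069 over all genes tested. Some of the 17 genes lay near 0 in both forms, such as Pdia4 (0.016 and -0.024). The 4 genes that follow were picked for a small unadjusted p of the difference between the forms. Atf6 had a log2 fold change of 0.41 with db and -0.38 without, Atf4 0.26 and -0.29, Ddit3 0.28 and -0.77, and Hyou1 0.71 and -0.13. The difference between the title forms, tested as an interaction, was 0.79 ± 0.19 (SE) for Atf6, 1.05 ± 0.29 for Ddit3, 0.84 ± 0.23 for Hyou1 and 0.54 ± 0.21 for Atf4. None of the 32 passed (edgeR quasi-likelihood, Benjamini-Hochberg), where the smallest adjusted p was 0.528 and 0% of all genes passed. At an unadjusted p under 0.05 these 4 genes passed, 12.5% of the 32, where 8.84% of all genes did.

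Within the 4 libraries whose titles lack db, 2 a group, 5 of the 32 genes were called by edgeR's quasi-likelihood test, where 9.57% of all genes were called. They were Atf6 (-0.38), Ddit3 (-0.77), Dnajc3 (-0.68) and Aldh1l2 (-1.02), lower in DIZE hearts, and Shmt2 (0.58), higher in DIZE hearts. The DIZE libraries in this fit, DIZE 3 and 4, were the most alike pair of all, so the spread within their group was small. Within the 4 libraries with db, the same edgeR test called 0 of the 32, where 0% of all genes were called. At an unadjusted p under 0.05 it gave 1, Hyou1, where 8.28% of all genes passed. Shmt2 and Ppp1r15a had nearly the same log2 fold change in both title forms, at 0.56 with db and 0.58 without for Shmt2, and at 0.44 and 0.42 for Ppp1r15a. Aldh1l2 was lower in DIZE hearts in both, at -0.37 with db and -1.02 without.

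**Figure D5:**
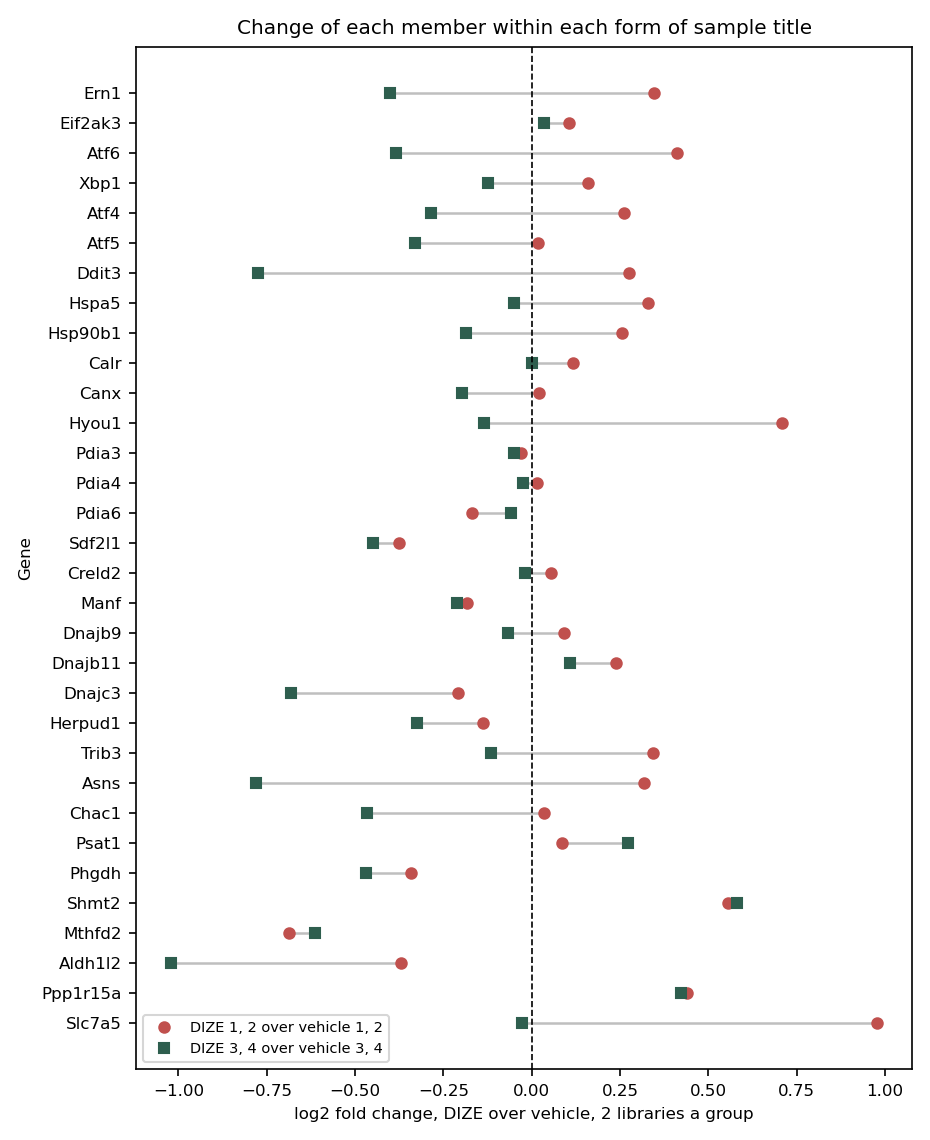
Log2 fold change (DIZE over vehicle) of the 32 genes among the 4 libraries whose titles hold the letters db, (circles), and among the 4 libraries without them (squares), with 2 DIZE and 2 vehicle libraries behind each point. Atf6, Ddit3, Atf4 and Hyou1 are above 0 with db and below 0 without, while Shmt2 (0.56 and 0.58) and Ppp1r15a (0.44 and 0.42) have like values in both.

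Neighbouring branches of the response were read from lists of related genes, and 0 of their 103 tested genes were called by edgeR's quasi-likelihood test or by limma-voom. Over all genes edgeR called 0.0366% and limma-voom called 4 genes. DESeq2 called 2 of the 103, Eif2ak2 and Yars, where it called 4.45% of all genes. In edgeR 16 of the 103 had an unadjusted p under 0.05, where 19.4% of all genes did. DIZE and vehicle values did not overlap in 12.6% of the 103, against 12.4% of all genes. The genes named from these lists were picked for small p-values, which favours groups that do not overlap. Of 17 tested genes of ER-associated degradation, 11 were above 0 and 6 below, with a median log2 fold change of 0.072. Syvn1 (HRD1), the ubiquitin ligase of that pathway, averaged 44.6 ± 2.77 CPM in DIZE hearts and 29.0 ± 9.58 CPM in vehicle hearts (SD, n = 4 each), without overlap (log2 fold change 0.62 ± 0.22, SE). The mannosidase-like genes Edem1 (-0.36) and Edem3 (-0.55) had lower means in DIZE hearts, and the lectin gene Os9 (0.30) a higher one.

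Of 21 other genes of ER folding and translocation, 6 were above 0 and 15 below (median -0.029), led by the translocon gene Sec61b at 6.09 ± 1.26 CPM in DIZE hearts and 9.29 ± 1.93 CPM in vehicle hearts (SD, n = 4 each). Of 17 genes of the other eIF2 kinases, eIF2 and related factors, 7 were above 0 and 10 below (median -0.036). Eif2ak2, the interferon-inducible kinase PKR that Dnajc3 inhibits, averaged 12.8 ± 2.59 CPM in DIZE hearts and 21.8 ± 5.22 CPM in vehicle hearts (SD, n = 4 each). Its log2 fold change was -0.76 ± 0.20 (SE), with an adjusted p of 0.111 (edgeR quasi-likelihood, Benjamini-Hochberg).

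Other ATF4-linked stress genes leaned lower, with 4 of 20 above 0 and 16 below and a median of -0.19, where 48.2% of all genes were above 0. Cytosolic aminoacyl-tRNA synthetases, which ATF4 is also known to induce, leaned higher, with 13 of 18 above 0 and 5 below and a median of 0.12. Among these 18, DIZE 2 was the highest library for 10 and vehicle 1 the lowest for 8. Over all genes DIZE 2 was the highest for 2130 of 13648 and vehicle 1 the lowest for 27.0%. Nupr1, a small stress-induced chromatin protein, averaged 4.86 ± 1.21 CPM in DIZE hearts and 8.51 ± 2.79 CPM in vehicle hearts (log2 fold change -0.82 ± 0.25, SE). Yars, the tyrosyl-tRNA synthetase, averaged 48.1 ± 4.11 and 34.6 ± 3.96 CPM, with no overlap (SD, n = 4 each; log2 fold change 0.48 ± 0.12, SE). Its adjusted p was 0.101 (edgeR quasi-likelihood, Benjamini-Hochberg). In the mitochondrial unfolded protein response, 7 of 10 genes were above 0 and 3 below (median 0.17), and vehicle 1 was the lowest library for 6 of the 10. The protease gene Clpx of this list averaged 228 ± 16.2 CPM in DIZE hearts and 192 ± 11.7 CPM in vehicle hearts (SD, n = 4 each). Of the 10 cardiomyocyte markers, 10 were above 0, with a median of 0.22, where 48.2% of all genes were. Of the 10 macrophage markers, 9 were below 0, with a median of -0.37. Vehicle 1 was the lowest library for 7 of the 10 cardiomyocyte markers and the highest for 9 of the 10 macrophage markers. Over all genes tested it was the lowest for 27.0% and the highest for 3074 of 13648. Fibroblast markers (10 of 10 tested) were below 0 in 9 of 10, with a median of -0.31. Of the 10, 3 were lower in every DIZE heart, as were 718 of all 13648 genes tested. DESeq2 called 3 of the 10, where it called 4.45% of all genes. The sums of these markers were 1376 to 1909 CPM in DIZE hearts. Vehicle 1 had the highest sum, at 2611 CPM, and the other vehicle hearts had 1576 to 1864 CPM. For 6 of the 10 markers vehicle 1 was the highest library. The part of these cell types in the values of the stress genes was not tested.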

How the data were processed

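TRIzol RNA was made into poly(A)-selected, stranded paired-end libraries and read on a NovaSeq, per the labels' protocols. STAR 2.7.3, HTSeq 0.6.1p1, edgeR, R 4.1 and build mm10 stand in the submitters' processing notes. How HTSeq treated strand, and the annotation release, are not stated there. The authors deposited raw counts per Ensembl gene, and 0 columns belonged to other samples. Groups follow the treatment label.

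GENCODE M21 gave symbols for 55141 of 55487 identifiers. With edgeR 4.0.16 in R 4.3.3, genes were kept by filterByExpr (minimum count 10, total 15), scaled by TMM and fitted with robust quasi-likelihood models, and p-values were adjusted by Benjamini-Hochberg over 13648 genes at 0.05. CPM are counts per 1000000 TMM-scaled reads in tested genes. SEs are the log2 fold change over the square root of its F value, and intervals cover 95%. Scripts were tested on simulated counts of DIZE and vehicle libraries. A simulated effect with a ratio of 1.5 was called in 31 of 201 cases (15.4%). The recovery rose to 74.6% at a ratio of 2 and to 93.4% at a ratio of 4. Most effects of the smallest size were thus missed, so the lack of a call alone does not exclude a change of that size. The most alike libraries (DIZE 3 and 4) differed beyond counting noise, with a chi-square of 5.54 per degree of freedom. They were therefore not the same library read again, but this cannot tell whether they came from separate mice. Each library was counted once.

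Alternatives were DESeq2 1.42.0, voom (limma 3.58.1), RLE factors, no filter and a stricter one, a GC and length trend (mgcv 1.9.3), blocks by title, and each library left out. In the block by title number, DIZE 3 and vehicle 4 each had a number of their own and so added nothing to the fold change. Title forms taken alone, and the interaction, were chosen after the data were seen. The genes, lists and roles were chosen with earlier results of these data known. All 32 genes could be named, and from each related list the 4 smallest unadjusted p-values.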

Additional observations from a re-analysis of the deposited data

Results flagged for a closer look

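In 4 of the 64 groups of 4 libraries screened (32 genes in DIZE and in vehicle hearts), a single library stood far from the other 3, as chance gives in about 1 group in 20. Ern1 was at 15.7 CPM in DIZE 3, where the other DIZE hearts were at 22.5 to 23.0 CPM. Hsp90b1 was at 302 CPM in DIZE 2, against 199 to 208 CPM in the other DIZE hearts. Calr was at 251 CPM in vehicle 1, the heart with the most atrial marker RNA, against 339 to 343 CPM in the other vehicle hearts. Psat1 was at 15.1 CPM in DIZE 3, against 11.5 to 11.6 CPM in the other DIZE hearts.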

How the results depend on the processing

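The number of genes called over the whole table (5 in edgeR's quasi-likelihood test) depended on the method: 606 with DESeq2, 386 without the filter, 46 after removal of the GC and length trend, 9 with title form as a block, 0 with title number as a replicate block, 0 to 240 with 1 library left out (240 without vehicle 2, 9 without vehicle 1, 1 without vehicle 3 and 0 without any other), 0 in titles with db alone and 1349 in those without. Of the 32 stress genes 0 were called, against 1 with DESeq2 (Aldh1l2), 5 in titles without db and 0 with any 1 library left out. The median of the chaperone and folding genes lay between -0.068 and 0.018, and that of the ATF4 targets between -0.26 (without DIZE 1) and 0.23 (without vehicle 3), with 1 library left out. Deviations from the group means correlated at -0.14 to 0.02 between DIZE and vehicle libraries of the same title number. Between those of different numbers the correlations were -0.21 to 0.14. These values cannot tell whether title numbers pair the samples. Over 18 settings, 514 of 576 gene values kept their direction, and 11 genes kept it in all. The cause of the others was not tested. Log2 fold changes turned to -0.014 for Atf4 (voom, and title form block), 0.13 for Ern1 and -0.13 for Trib3 (title number as a replicate block), and 0.013 for Pdia4 (no filter). After removal of the GC and length trend they were -0.10 for Atf4, 0.020 for Canx, -0.0078 for Creld2, 0.043 for Ddit3, 0.035 for Ern1, 0.0047 for Pdia3, 0.048 for Pdia4, -0.12 for Trib3 and -0.028 for Xbp1. With db alone they were 0.32 for Asns, 0.019 for Atf5, 0.021 for Canx, 0.034 for Chac1, 0.28 for Ddit3, 0.35 for Ern1 and 0.016 for Pdia4. Without db they were -0.29 for Atf4, -0.38 for Atf6, -0.018 for Creld2, -0.067 for Dnajb9, -0.19 for Hsp90b1, -0.050 for Hspa5, -0.13 for Hyou1, -0.028 for Slc7a5, -0.12 for Trib3 and -0.12 for Xbp1. With 1 library left out, the sign turned for Ern1 (-0.20 to 0.090), Eif2ak3 (-0.0084 to 0.15), Atf6 (-0.085 to 0.11), Xbp1 (-0.059 to 0.087), Atf4 (-0.12 to 0.10), Atf5 (-0.32 to 0.083), Hsp90b1 (-0.12 to 0.10), Calr (-0.044 to 0.13), Pdia3 (-0.088 to 0.017), Pdia4 (-0.075 to 0.072), Creld2 (-0.079 to 0.090), Dnajb9 (-0.058 to 0.098), Trib3 (-0.069 to 0.37), Asns (-0.50 to 0.23) and Mthfd2 (-1.15 to 0.17). For the other genes, each end of the range was set against the value with no library left out. It differed from that value by over 1.5 times for Canx (-0.13 to -0.045), Pdia6 (-0.22 to -0.022), Sdf2l1 (-0.54 to -0.24), Manf (-0.27 to -0.13), Herpud1 (-0.42 to -0.050), Psat1 (0.074 to 0.23) and Phgdh (-0.64 to -0.21). The same held for Ddit3 (-0.43 to -0.021), Hspa5 (0.062 to 0.20), Hyou1 (0.15 to 0.38), Chac1 (-0.50 to -0.036), Ppp1r15a (0.23 to 0.53) and Slc7a5 (0.22 to 0.61). Shmt2 (0.39 to 0.72), Dnajc3 (-0.60 to -0.34), Dnajb11 (0.12 to 0.20) and Aldh1l2 (-0.84 to -0.58) moved by less.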
